A study of Mus musculus with 6 samples.

Results

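The 36 genes described here encode the contractile machinery of skeletal muscle and the proteins that serve it. They were measured in RNA of inguinal white adipose tissue, a fat depot under the skin of the groin. Members were chosen by gene symbol, and all 36 were found among the 21900 symbols of the table. Of these, 6 are isoforms of slow fibres (Myh7, Tnnt1, Tnni1, Tnnc1, Myl2 and Myl3), 13 are isoforms or markers of fast fibres, and 17 were assigned to neither, among them Mybpc1 and Casq2, whose products are also known from slow fibres. The 3 knockout libraries came from C57BL/6 mice of genotype Foxp4AdipoQdelta/delta, in which Foxp4, a forkhead transcription factor, is deleted by a Cre driven from the promoter of Adipoq, active in mature adipocytes. The 3 control libraries came from C57BL/6 mice labelled Foxp4fl/fl, with the floxed gene only. All mice were 2 months old, had been kept on chow at 22 °C, and had then spent 7 days at 4 °C, so that both groups carry the floxed allele and the cold exposure. Cre and the loss of Foxp4 go together in the labels and cannot be told apart. The labels do not say whether a sample is 1 mouse or a pool, so the spread between samples may be partly technical.

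Skeletal muscle shortens when the myosin heads of thick filaments pull on thin filaments of actin, and calcium released from the sarcoplasmic reticulum switches the troponin complex of the thin filament on. Most of these proteins exist as separate slow and fast isoforms, made from different genes in slow oxidative and fast glycolytic fibres, so that their RNA tells fibre types apart. White fat holds no skeletal muscle fibres of its own, but the depot lies next to muscle of the body wall and thigh. Where the muscle RNA in these libraries came from was not tested.

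The libraries held between 13191566 and 16001616 reads recovered from the deposited FPKM (fragments per kilobase of exon, scaled to the library total), and 1 read on 1 kilobase of exon was worth 0.0620 to 0.0752 FPKM. Foxp4 stood at 1.92, 1.71 and 1.64 FPKM in knockouts, against 5.76, 4.01 and 4.62 FPKM in controls (log2 fold change -1.06, adjusted p = 0.070 by limma). Here and below, values follow the order of replicates 1, 2 and 3 within a group. The adipocyte gene Fabp4 averaged 2483 ± 42.1 FPKM in knockouts and 2539 ± 274 FPKM in controls (SD, n = 3 each). The 8 adipocyte markers summed to 8464 to 9205 FPKM in knockouts and 11178 to 12018 FPKM in controls. Cfd, the most abundant of the 8, weighs most in these sums, at 4000 ± 420 FPKM in knockouts and 6162 ± 420 FPKM in controls. Of the 8, 0 were higher and 3 lower in knockouts at an unadjusted p of 0.05 in limma, where 6.98% of all genes tested were higher and 17.1% lower. The fit covered 10787 genes whose mean reached 1 FPKM in knockouts or in controls, of which 1 (0.00927%) passed an adjusted p of 0.05 in limma. It was not a member.

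Promoters of 5 members are shown because their levels took different courses across libraries: Acta1, Myh4 and Mylpf varied together, whereas Actn2 and Myl1 did not follow them. Each runs from 250 bases before to 50 bases after a RefSeq transcription start (build GRCm38.p6), 5′ to 3′ on the gene's strand, and was picked after its values were seen. Capitals mark matches on either strand to the E-box CANNTG, bound by myogenic factors and other helix-loop-helix proteins, to the MEF2 motif and to the CArG box bound by serum response factor. The stretches are chr8:123894726-123895025 (minus strand), chr11:67237562-67237861 (plus strand), chr7:127211358-127211657 (plus strand), chr13:12340683-12340982 (minus strand) and chr1:66945007-66945306 (minus strand).
Acta1: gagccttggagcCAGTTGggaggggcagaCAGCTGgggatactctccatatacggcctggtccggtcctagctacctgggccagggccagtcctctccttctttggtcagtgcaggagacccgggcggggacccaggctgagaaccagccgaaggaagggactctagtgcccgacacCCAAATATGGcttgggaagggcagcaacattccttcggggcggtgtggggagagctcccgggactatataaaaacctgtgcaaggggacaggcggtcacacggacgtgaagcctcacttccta
Myh4: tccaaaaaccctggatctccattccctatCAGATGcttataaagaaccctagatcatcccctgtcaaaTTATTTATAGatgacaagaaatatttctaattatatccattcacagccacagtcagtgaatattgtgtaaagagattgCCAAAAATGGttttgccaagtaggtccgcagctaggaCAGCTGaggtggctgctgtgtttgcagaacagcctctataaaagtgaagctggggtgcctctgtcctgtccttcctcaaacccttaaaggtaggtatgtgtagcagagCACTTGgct
Mylpf: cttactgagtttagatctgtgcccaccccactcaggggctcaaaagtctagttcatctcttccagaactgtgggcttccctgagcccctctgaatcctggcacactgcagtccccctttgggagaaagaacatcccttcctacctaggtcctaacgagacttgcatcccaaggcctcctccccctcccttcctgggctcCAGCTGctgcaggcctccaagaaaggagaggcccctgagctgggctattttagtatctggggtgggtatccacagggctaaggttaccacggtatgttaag
Actn2: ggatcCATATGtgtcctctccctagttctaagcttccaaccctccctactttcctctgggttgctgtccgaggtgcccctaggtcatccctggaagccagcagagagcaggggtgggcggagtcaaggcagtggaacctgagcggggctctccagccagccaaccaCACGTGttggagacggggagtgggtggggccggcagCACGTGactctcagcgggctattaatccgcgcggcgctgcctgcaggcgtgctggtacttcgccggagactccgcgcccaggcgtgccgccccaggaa
Myl1: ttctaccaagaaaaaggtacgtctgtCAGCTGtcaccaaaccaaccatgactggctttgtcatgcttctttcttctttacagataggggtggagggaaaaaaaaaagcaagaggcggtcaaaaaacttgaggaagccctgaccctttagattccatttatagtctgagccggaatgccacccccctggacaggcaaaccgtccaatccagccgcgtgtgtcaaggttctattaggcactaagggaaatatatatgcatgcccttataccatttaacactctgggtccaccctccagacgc
The Acta1 promoter held 1 CArG box and 2 E-boxes. That of Myh4 held 1 MEF2 motif, 1 CArG box and 3 E-boxes, and those of Mylpf and Myl1 held 1 E-box each. In these 4 genes 1 of the E-boxes read CAGCTG. The Actn2 promoter held 3 E-boxes, none of which read CAGCTG, and neither of the other motifs. A promoter was in the table for 30 of the 36 members, not for Tnnt3, Tnni2, Actn3, Neb, Myoz1 and Tcap. Of the 30, 26 (86.7%) held CANNTG, against 72.1% of all 27025 genes in it, and 16 (53.3%) held CAGCTG, a form of the same motif, against 16.1%. A MEF2 motif was found in 6 members (20%, against 3.26% of all genes) and a CArG box in 4 (13.3%, against 1.57%). These are letter matches in a short window and say nothing of binding.

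Muscle RNA differed widely between libraries of the same genotype. Reads on the members numbered 2765, 6471 and 19750 in knockouts, against 4964, 2555 and 4556 in controls. Knockout replicate 3 was the highest and control replicate 2 the lowest, and knockout replicate 1 lay below control replicates 1 and 3. These totals include Myl1 and Des, which did not follow Acta1 between libraries. In knockout replicate 1 they held 927 and 358 of the 2765 reads, and in control replicate 2 they held 999 and 342 of the 2555. The FPKM of Acta1 spanned 16.3-fold. Of the 35 members with any value above 0, knockout replicate 3 was highest in 32, whereas it was highest in 5.79% of all genes tested. In 25 of these, knockout replicate 2 came next. Knockout replicate 1 was below both control replicate 1 and control replicate 3 in 26 of 35. The counts of 25 and 26 were not made over all genes tested, so they are not read as a trait of the members. Of all genes, 22.7% had every knockout below every control, a stricter condition than that counted in the 26. Only 34.0% of all genes had a log2 fold change, knockout over control, above 0. Of the members 22 were tested, whereas the share of 5.79% covers tested genes only. In whole-tissue RNA, fewer muscle cells and less RNA per muscle cell cannot be told apart.

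**Figure D1:**
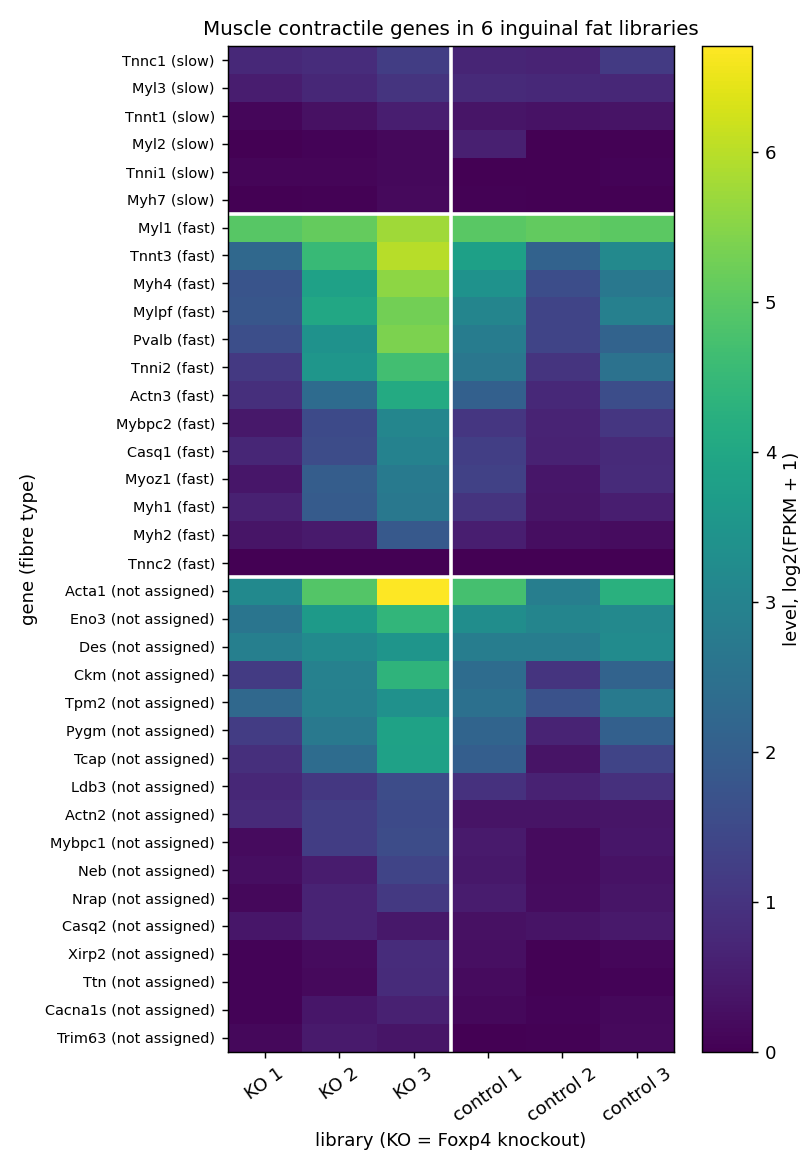
Levels of the 36 genes as log2(FPKM + 1), by colour, in the 3 knockout libraries (left) and the 3 control libraries (right), with slow, fast and unassigned members in blocks from top to bottom. Most fast members are brightest in knockout replicate 3 and darkest in knockout replicate 1 and control replicate 2, the slow members are dark throughout, and Myl1 is bright in all 6 libraries.

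Among the motors of the thick filament, the myosin heavy chain of the fastest fibres was by far the most abundant in every library. Myh4, the type IIB chain (chromosome 11, 67238029 to 67260446, plus strand, mm10), stood at 2.33, 13.3 and 46.0 FPKM in knockouts, against 9.69, 2.01 and 5.40 FPKM in controls. Knockout replicates 2 and 3 lay above every control, knockout replicate 1 among them, and the groups overlapped. Myh1, the type IIX chain, stood at 0.53, 2.79 and 5.46 FPKM in knockouts, against 1.03, 0.29 and 0.47 FPKM in controls. Myh2, the type IIA chain of fast oxidative fibres, stood at 0.29, 0.41 and 2.65 FPKM in knockouts, against 0.49, 0.18 and 0.16 FPKM in controls. For both genes control replicate 1 was above knockout replicate 1, so the groups overlapped again. Myh7, the slow chain also made in the heart, had few reads, 2, 3 and 16 reads in knockouts, against 3, 1 and 1 reads in controls.

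The balance between the heavy chains was much steadier than their levels. By FPKM, which is per length, Myh4 made up 73.4, 80.5 and 84.8% of the 4 chains in knockouts, against 86.3, 80.7 and 89.5% in controls. Its mean share was 79.6 ± 5.74% in knockouts and 85.5 ± 4.45% in controls (SD, n = 3 each), with overlapping groups. Myh1 held 14.6 ± 3.91% in knockouts and 9.53 ± 1.97% in controls. Myh2 held 5.55 ± 3.44% in knockouts and 4.75 ± 2.38% in controls, and Myh7 at most 0.495% in any library. These genes share part of their sequence. Of all 50-base stretches of the longest transcript, 32.1% of Myh1, 28.9% of Myh2, 28.2% of Myh7 and 18.9% of Myh4 also occur, on either strand, in transcripts of other genes. The most shared with any 1 gene was 19.7% of Myh1 (with Myh2), 19.7% of Myh2 (with Myh1), 22.2% of Myh7 (with Myh6) and 10.6% of Myh4 (with Myh1). The shares of the 4 chains are therefore uncertain, since the handling of reads with several matches is not given in the sources used here.

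**Figure D2:**
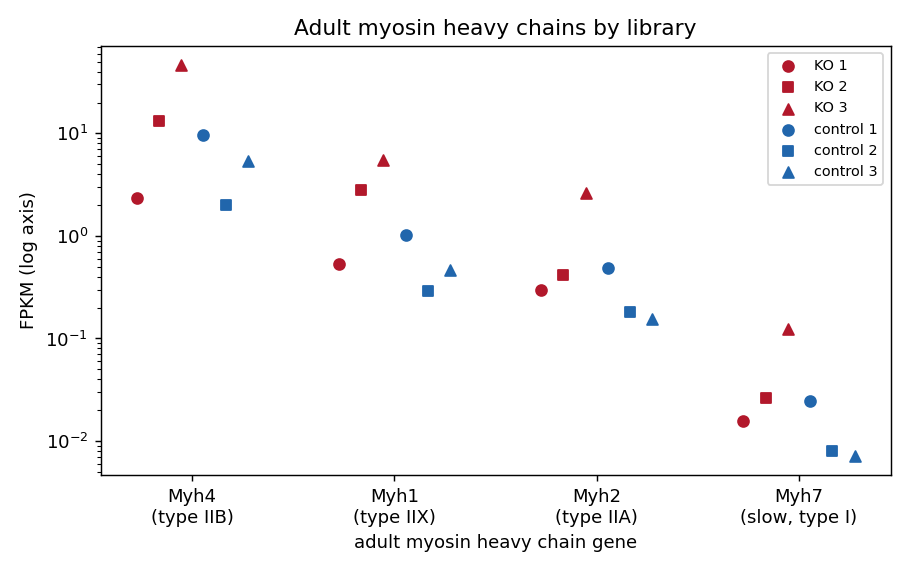
FPKM on a log axis of the 4 adult myosin heavy chain genes in each library, knockouts in red and controls in blue. Within each library the chains keep the order Myh4, Myh1, Myh2 and Myh7, and knockout replicate 3 is highest for each.

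Myosin light chains stabilise the lever arm of the heavy chain, and the fast and slow forms differ. Mylpf, the fast regulatory chain (chromosome 7, 127208890 to 127214298, plus strand), stood at 2.48, 15.3 and 37.8 FPKM in knockouts, against 7.29, 1.61 and 6.54 FPKM in controls, in the same library order as Myh4. Myl1, the fast essential chain (chromosome 1, 66924295 to 66945404, minus strand), did not share that order, at 30.3, 33.7 and 52.4 FPKM in knockouts, against 30.5, 33.0 and 31.4 FPKM in controls. Outside knockout replicate 3 it was almost level, and it exceeded Mylpf in every library. A processed pseudogene, Mylf-ps, holds 23.4% of the 50-base stretches of the longest Myl1 transcript, and its part in the Myl1 reads was not tested. Of the slow forms, Myl3 stood at 0.46, 0.66 and 1.0 FPKM in knockouts, against 0.73, 0.70 and 0.67 FPKM in controls. Myl2 had 0, 1 and 3 reads in knockouts, against 14, 0 and 1 reads in controls. The myosin-binding protein C of fast fibres, Mybpc2, averaged 3.22 ± 3.75 FPKM in knockouts and 0.93 ± 0.30 FPKM in controls, and the slow-type form Mybpc1 1.15 ± 0.92 FPKM in knockouts and 0.30 ± 0.13 FPKM in controls, both highest in knockout replicate 3.

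In the thin filament, Acta1, the skeletal muscle actin (chromosome 8, 123891769 to 123894751, minus strand), rested on 183, 590 and 2401 reads in knockouts, against 553, 142 and 447 reads in controls. Its FPKM of 8.06, 28.9 and 103 in knockouts, against 25.6, 6.33 and 18.1 in controls, overlapped between groups. Tnnt3, the fast troponin T that ties the complex to tropomyosin (chromosome 7, 142498836 to 142516009, plus strand), stood at 3.84, 21.8 and 61.9 FPKM in knockouts, against 13.1, 3.33 and 7.96 FPKM in controls. Tnni2, the fast inhibitory subunit (chromosome 7, 142441808 to 142444410, plus strand), stood at 1.17, 10.5 and 24.4 FPKM in knockouts, against 5.31, 1.01 and 4.77 FPKM in controls. All 3 genes ranked the libraries alike: knockout replicates 3 and 2, control replicates 1 and 3, knockout replicate 1, control replicate 2. Tpm2, the beta tropomyosin also made in slow fibres and smooth muscle, varied less, at 3.77, 6.63 and 9.45 FPKM in knockouts, against 4.59, 2.23 and 5.61 FPKM in controls.

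The slow troponins barely registered. Tnnt1 stood at 0.092, 0.24 and 0.48 FPKM in knockouts, against 0.29, 0.25 and 0.28 FPKM in controls. Tnni1 had 3, 3 and 6 reads in knockouts, against 0, 0 and 3 reads in controls. These groups do not overlap in FPKM, but every control and 2 knockouts lie at or under 3 reads, so no fold is given. Tnnc1, the calcium sensor of slow and cardiac muscle, stood at 0.71, 0.80 and 1.33 FPKM in knockouts, against 0.61, 0.59 and 1.19 FPKM in controls. Its fast partner Tnnc2 (chromosome 2, 164777161 to 164779967, minus strand) was listed at 0 in all 6 libraries. Of its 800 exon bases, 592 lie under an exon of Ube2c on the other strand, and the strand setting of the counting is not given. That listing is therefore not read as absence of the RNA.

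At the Z-disc, where thin filaments are anchored, the alpha-actinins of fast fibres and of all fibres ranked the libraries differently. Actn3, the form of fast fibres, stood at 0.89, 4.08 and 16.2 FPKM in knockouts, against 3.18, 0.71 and 1.99 FPKM in controls, with the order and the overlap of Acta1. Actn2, the form of all fibres and of heart (chromosome 13, 12269426 to 12340760, minus strand), stood at 0.73, 1.31 and 1.85 FPKM in knockouts, against 0.28, 0.27 and 0.31 FPKM in controls. These values rest on 41, 66 and 106 reads in knockouts, against 15, 15 and 19 reads in controls. Every knockout lay above every control, knockout replicate 1 included, although that library was among the poorest in Acta1. Only 1 of the 22 members tested, Actn2, had groups apart with knockouts higher, where 8.48% of all genes tested did, and 0 had knockouts lower, where 22.7% of all genes did. The limma estimate for Actn2 was 0.81 on the log2 scale (SE 0.18, 95% interval 0.38 to 1.23), at an unadjusted p of 0.0028, and its adjusted p of 0.088 did not reach the threshold of 0.05. Actn2 entered the fit through its knockout mean alone (1.30 FPKM, against 0.29 FPKM in controls), so these values are a description only. Without the filter its unadjusted p in limma was 0.0030 and its adjusted p 0.13. Over 13 other settings its log2 fold change lay between 0.64 and 2.04 and its adjusted p in limma between 0.076 and 0.30.

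The other Z-disc and scaffold genes followed the library pattern to different degrees. Tcap, which caps titin at the Z-disc, stood at 0.86, 4.21 and 13.2 FPKM in knockouts, against 3.0, 0.29 and 1.57 FPKM in controls. Myoz1, a calcineurin-binding protein of fast fibres, averaged 3.02 ± 2.76 FPKM in knockouts and 0.86 ± 0.57 FPKM in controls. Des, the intermediate filament protein that smooth muscle also makes, varied less than these, at 6.45, 8.28 and 10.3 FPKM in knockouts, against 6.18, 6.23 and 8.35 FPKM in controls. Its highest value was 1.66 times its lowest, and its spread within groups still exceeded that of 86.2% of all genes tested. Ldb3, a Z-disc adaptor, averaged 1.26 ± 0.65 FPKM in knockouts and 0.80 ± 0.22 FPKM in controls. The giant proteins titin and nebulin gave low FPKM over very long exons. Ttn had 71, 202 and 1369 reads in knockouts, against 239, 60 and 87 reads in controls, and Neb had 71, 154 and 645 reads in knockouts, against 127, 58 and 106 reads in controls. Nrap averaged 0.62 ± 0.53 FPKM in knockouts and 0.29 ± 0.13 FPKM in controls, and Xirp2, another actin-binding scaffold, 0.33 ± 0.41 FPKM in knockouts and 0.11 ± 0.090 FPKM in controls.

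Among calcium-handling genes, those of fast fibres ranked the libraries as Acta1 did. Pvalb, the calcium buffer that speeds relaxation of fast fibres in rodents (chromosome 15, 78191114 to 78206400, minus strand), stood at 2.08, 9.62 and 40.7 FPKM in knockouts, against 6.07, 1.58 and 3.40 FPKM in controls. Casq1, the calcium store protein of the fast sarcoplasmic reticulum, averaged 3.18 ± 3.30 FPKM in knockouts and 0.89 ± 0.43 FPKM in controls. Casq2, the cardiac and slow form, was low, at 0.32, 0.58 and 0.34 FPKM in knockouts, against 0.23, 0.28 and 0.36 FPKM in controls. Cacna1s, the voltage sensor of the transverse tubule, had 4, 28 and 53 reads in knockouts, against 10, 5 and 11 reads in controls.

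Ckm, the muscle creatine kinase that regenerates ATP (chromosome 7, 19404776 to 19422841, plus strand), stood at 1.23, 6.75 and 19.4 FPKM in knockouts, against 4.22, 1.01 and 3.39 FPKM in controls. Pygm, the muscle glycogen phosphorylase, averaged 6.77 ± 6.21 FPKM in knockouts and 2.40 ± 1.57 FPKM in controls. Eno3, the muscle enolase, varied less between libraries, at 5.09, 11.7 and 20.1 FPKM in knockouts, against 8.78, 7.24 and 7.88 FPKM in controls. Trim63, a ubiquitin ligase induced in muscle atrophy, had 4, 15 and 13 reads in knockouts, against 0, 1 and 6 reads in controls, and knockout replicate 1 lay below control replicate 3.

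Set against Acta1 in the same library, a few members kept similar proportions, and others did not. The FPKM of Actn3 relative to that of Acta1 was 0.110, 0.141 and 0.156 in knockouts, against 0.124, 0.112 and 0.110 in controls. For Ckm the ratio was 0.153, 0.234 and 0.188 in knockouts, against 0.165, 0.160 and 0.188 in controls. Over the 6 libraries the highest ratio was 1.42 times the lowest for Actn3, 1.53 times for Ckm, 1.59 times for Myh4 and 1.72 times for Tnnt3, although Acta1 itself spanned 16.3-fold. Of 31 members with a value above 0 in every library, apart from Acta1, the ratio stayed within a factor of 2 in 6 and within a factor of 3 in 17. It spanned more than 5-fold in 9: Tpm2, Eno3, Tnnc1, Actn2, Tnnt1, Des, Myl1, Myl3 and Casq2. For Actn2 it was 0.0907, 0.0454 and 0.0179 in knockouts, against 0.0110, 0.0428 and 0.0172 in controls.

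**Figure D3:**
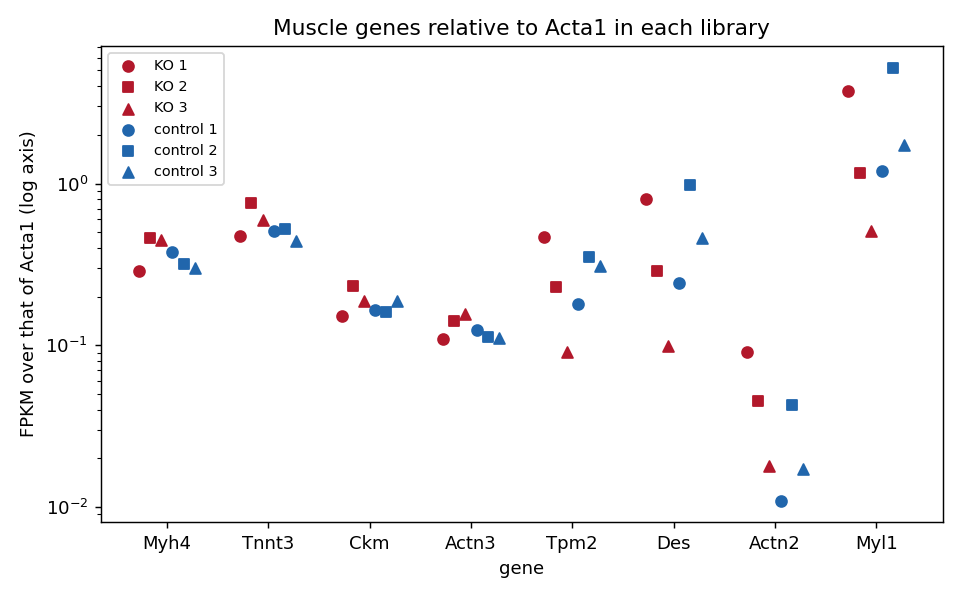
FPKM of 8 genes divided by the FPKM of Acta1 in the same library, on a log axis, with knockouts in red and controls in blue. Myh4, Tnnt3, Ckm and Actn3 form tight clusters, whereas Tpm2, Des, Actn2 and Myl1 are spread over 5.11-fold to 10.3-fold, each highest in knockout replicate 1 or control replicate 2, the libraries with least Acta1.

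Slow and fast isoforms were set against each other by their summed FPKM. The 6 slow genes summed to 1.34, 1.83 and 3.15 FPKM in knockouts, against 2.17, 1.55 and 2.23 FPKM in controls, from 33, 43 and 93 reads in knockouts and 56, 39 and 57 reads in controls. The fast genes without Myl1, which was left out after its level values were seen, summed to 15.0, 84.5 and 255 FPKM in knockouts, against 50.1, 12.2 and 33.3 FPKM in controls. All fast genes, Myl1 included, summed to 45.2, 118 and 308 FPKM in knockouts, against 80.6, 45.2 and 64.7 FPKM in controls. The slow sum spanned 2.35-fold over the libraries, the sum of all fast genes 6.82-fold, and the fast sum without Myl1 20.9-fold. Without Myl1, the slow share of the slow and fast sums was 8.23, 2.11 and 1.22% in knockouts, against 4.15, 11.3 and 6.28% in controls. The share was lowest where fast RNA was highest, which follows from its make-up, since the fast sum is part of it and varied most. It averaged 3.86 ± 3.82% in knockouts and 7.24 ± 3.66% in controls (SD, n = 3 each), a difference within the spread. With Myl1 the slow share was 1.81 ± 0.97% in knockouts and 3.09 ± 0.41% in controls. Its value in knockout replicate 1, 2.88%, lay above that in control replicate 1, 2.62%. Among the troponins alone, the slow share was 6.71 ± 6.92% in knockouts and 10.5 ± 5.78% in controls, with Tnnc2 listed at 0.

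**Figure D4:**
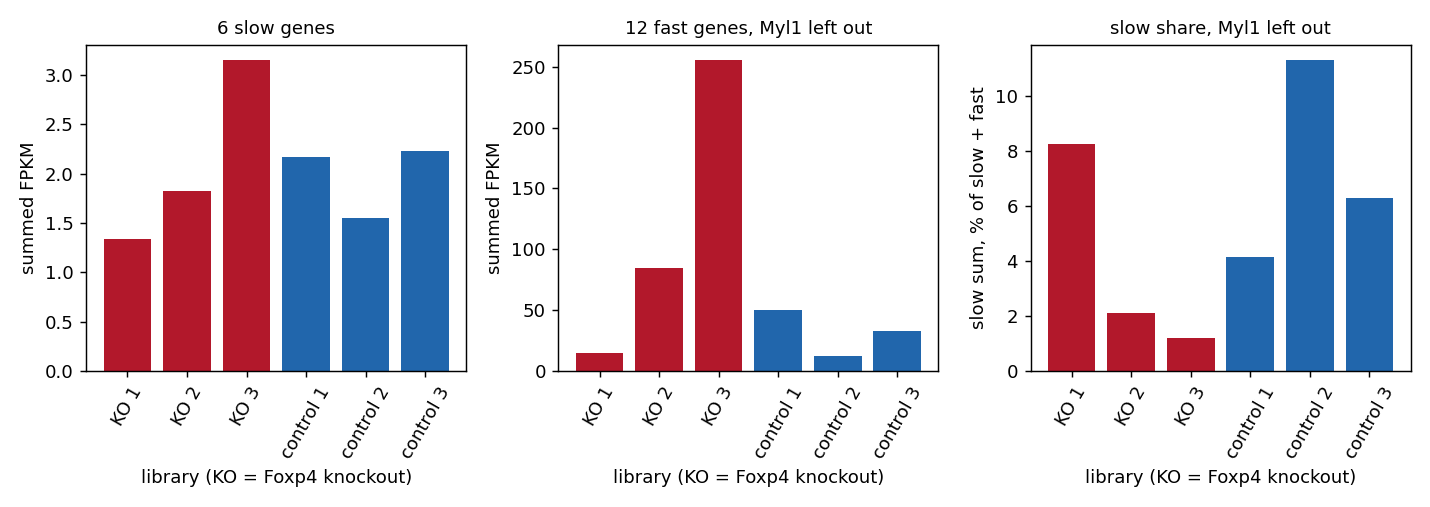
Summed FPKM of the 6 slow genes (left) and of the 12 fast genes without Myl1 (middle), and the slow sum as a percentage of both (right), per library, with knockouts in red and controls in blue. The slow sums lie between 1.34 and 3.15 FPKM, the fast sums between 12.2 and 255 FPKM, and the slow share is lowest in knockout replicates 2 and 3.

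In the fit across all genes, 22 of the 36 members were abundant enough to be tested, 12 fast and 10 assigned to neither type, and 0 of the 6 slow members. Of the 22, 8 entered through the knockout mean alone, Actn2 among them, and 0 through the control mean alone, so their direction is a description only. None passed an adjusted p of 0.05 in limma. At an unadjusted p of 0.05, 1 was higher in knockouts (Actn2) and 0 lower, where 6.98% of all genes tested were higher and 17.1% lower. All 22 had a positive log2 fold change, from 0.23 for Des to 1.36 for Pvalb, against 34.0% of all genes tested. Without the filter 32 of 35 were positive. The share of all genes positive was not counted there, but their median was -0.042. In the fit with the filter the median of the 22 was 0.91 and that over all genes -0.082. The limma estimate for Myh4 was 1.14 on the log2 scale (SE 0.92, 95% interval -1.01 to 3.30; adjusted p = 0.47). For Acta1 it was 0.98 (SE 0.87, interval -1.07 to 3.02; adjusted p = 0.51). The median residual spread between libraries of a group was 0.93 on the log2(FPKM + 1) scale for the members and 0.13 for all genes tested.

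Single libraries set the size of these values. Without knockout replicate 3 the median over the 19 members then tested was 0.26, and 18 of 19 were above 0. Of the 10770 genes from the fit to all 6 libraries still tested there, 4027 were above 0, with a median of -0.069. Of the 19 members, 1 was higher at an unadjusted p of 0.05 in limma, where 7.29% of all genes were. Without knockout replicate 1 the median was 1.45, and 20 of 24 members tested were higher at an unadjusted p of 0.05, where 4.84% of all genes were. None of the 24 passed adjustment (lowest adjusted p = 0.17 in limma). Leaving out any of the other 4 libraries left 1 member higher, where 3.73% (without knockout replicate 2), 5.10%, 6.31% and 8.33% (without control replicates 1, 2 and 3) of all genes were. Without control replicate 2 the median was 0.58. In knockouts the library poorest in muscle RNA and the library richest in it thus lay on opposite sides of most controls.

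**Figure D5:**
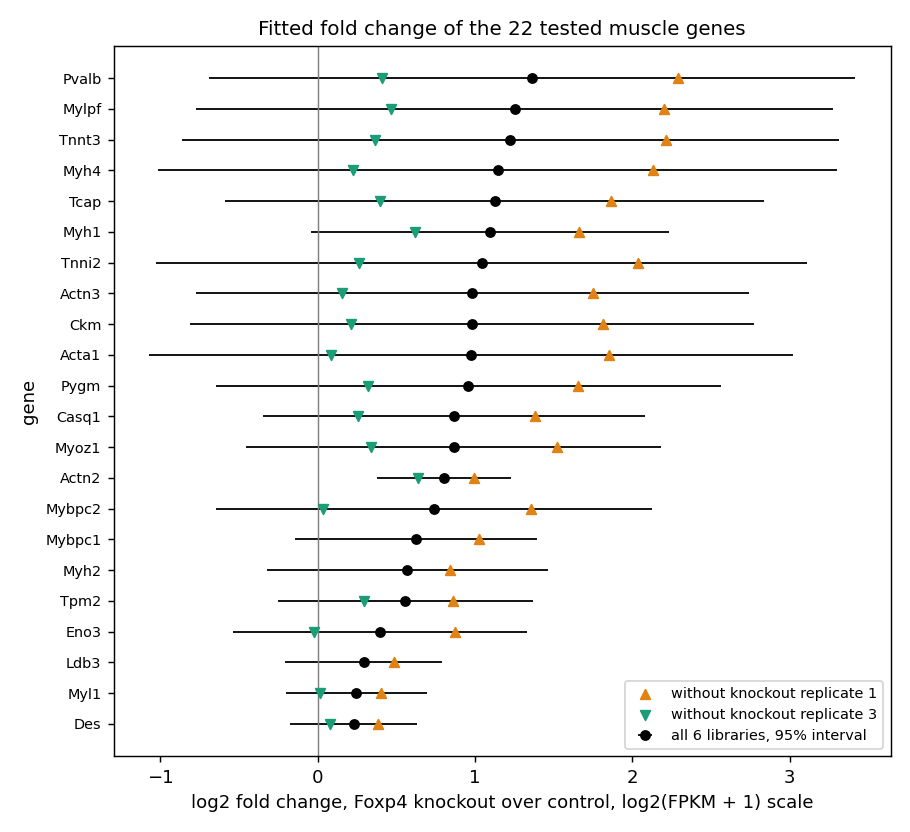
Log2 fold change of the 22 tested genes, knockout over control, on the log2(FPKM + 1) scale. Black points with lines are the fit to all 6 libraries with 95% intervals, orange triangles the fit without knockout replicate 1 and green triangles the fit without knockout replicate 3. The interval of Actn2 is the only one of the 22 that does not cross 0, and every green triangle lies left of the orange one for the same gene. The 3 genes without a green triangle fell under the filter there.

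Other genes of muscle were counted by lists chosen with earlier results known, and each count is to be read against all genes tested, of which 6.98% were higher and 17.1% lower with an unadjusted p under 0.05. Of 32 further sarcomere genes, 8 were tested, and 1 was higher (Myom1) and 0 lower by unadjusted p. Knockout replicate 3 was highest in 22 of 32, against 5.79% of all genes tested, a share that leaves out low genes such as most of the 32. Myom1, an M-band protein, stood at 1.34, 2.03 and 1.64 FPKM in knockouts, against 1.09, 1.15 and 1.07 FPKM in controls (log2 fold change 0.33, SE 0.12, adjusted p = 0.15 in limma), with groups apart as in Actn2. The most abundant tested genes of that list, Cryab, Tpm3, Tpm1 and Pdlim5, had log2 fold changes of 0.27, -0.27, 0.46 and -0.078. Among 18 genes of calcium release and uptake, 6 were tested, and 2 were higher and 1 lower by unadjusted p. The fast calcium pump gene Atp2a1 stood at 1.91, 9.29 and 26.2 FPKM in knockouts, against 4.90, 1.34 and 3.03 FPKM in controls, in the order of Myh4. The pump of slow muscle and most other tissues, Atp2a2, averaged 47.0 ± 4.67 FPKM in knockouts and 39.0 ± 2.88 FPKM in controls, and was 1 of the 2 higher genes. The other was Srl (4.75 ± 1.0 FPKM in knockouts and 2.98 ± 0.47 FPKM in controls), and the lower gene was Asph (4.25 ± 0.43 FPKM in knockouts and 7.27 ± 1.22 FPKM in controls).

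Of 16 genes listed under muscle energy metabolism, many of which fat also makes, 15 were tested. By unadjusted p 7 were higher and 0 lower, where 6.98% of all genes were higher and 17.1% lower. Amd1, counted among the 7, encodes an enzyme of polyamine synthesis and not of energy metabolism. Another of the 7, the oxygen carrier gene Mb, passed adjustment in the fit to all 6 libraries. Mb stood at 9.11, 14.2 and 7.97 FPKM in knockouts, against 1.28, 0.92 and 0.87 FPKM in controls, so that knockout replicate 1 exceeded every control while its Acta1 was 8.06 FPKM. The limma estimate for Mb was 2.46 on the log2 scale (SE 0.20, adjusted p = 0.042). Over 14 other settings that estimate lay between 2.24 and 3.28, but the adjusted p, from 0.025 to 0.17, missed 0.05 in 6 of them. The fatty acid carrier Fabp3 averaged 673 ± 235 FPKM in knockouts and 335 ± 76.6 FPKM in controls, and the lactate dehydrogenase gene Ldha 547 ± 24.4 FPKM in knockouts and 425 ± 11.8 FPKM in controls, both among the 7. The oxidative muscle isoform Cox7a1, at 194 ± 24.4 FPKM in knockouts and 121 ± 54.2 FPKM in controls, and Cox8b, at 620 ± 89.5 FPKM in knockouts and 456 ± 168 FPKM in controls, also belong to thermogenic fat.

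Markers of other muscle types were set beside these values. The 10 smooth muscle genes summed to 40.3 to 60.4 FPKM in knockouts and 39.6 to 76.2 FPKM in controls. Knockout replicate 3 was highest in 0 of the 10, which is near the 5.79% of all genes tested. Of those 10, limma tested 6, and 0 were higher and 0 lower by unadjusted p, where 6.98% of all genes were higher and 17.1% lower. The most abundant of them, Myl9, averaged 17.8 ± 5.64 FPKM in knockouts and 21.7 ± 7.54 FPKM in controls. The 10 cardiac genes summed to 0.88 to 2.35 FPKM in knockouts and 1.25 to 1.99 FPKM in controls. The atrial genes Myl7 and Nppa were listed at 0 in every library. Myl4, another atrial gene, was not, with 47, 49 and 49 reads in knockouts, against 51, 33 and 64 reads in controls. Tnni3 of the same list had 2, 6 and 4 reads in knockouts, against 16, 19 and 26 reads in controls. Of the 20 genes of myogenic and junctional cells, Pax7, Pax3 and Chrnd were listed at 0 in every library, and Myod1 and Myog reached at most 3 reads. In that list 4 genes were tested, 1 higher and 0 lower by unadjusted p. The higher one was the transcription factor gene Mef2d, the most abundant of the 4, at 20.2 ± 1.53 FPKM in knockouts and 16.7 ± 1.11 FPKM in controls. Among 8 atrophy genes 7 were tested, 1 higher and 2 lower. Klf15, the most abundant of the 7 and not among those, stood at 22.2 ± 2.86 FPKM in knockouts and 29.1 ± 5.70 FPKM in controls (adjusted p = 0.21 by limma). The 7 thermogenic genes summed to 3731, 4066 and 2567 FPKM in knockouts, against 1164, 2017 and 2640 FPKM in controls, in a library order unlike that of Acta1, and 5 of the 7 were higher by unadjusted p, against 6.98% of all genes. The part of any of these cell types in the levels of Des, Tpm2, Actn2 or Myl1 was not tested.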

How the data were processed

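Polyadenylated RNA of 6 inguinal fat samples was sequenced from libraries of a stranded kit, per the labels' protocols. Trimming, alignment and counting tools (cutadapt, HISAT2, HTSeq) and the build mm10 are listed in the submitters' processing notes. Tool versions and strand setting were not given in the sources used here. The authors deposited FPKM per gene, in 1 column per sample, and the unit was read from the values. FPKM times exon length (GENCODE M21) and a library factor came to a whole number (tolerance 0.05) in 97.9 to 98.1% of low values (50 reads or fewer). These recovered reads cover 21305 genes, Xirp2 not among them. Where a symbol recurred, 1 row was kept, the higher, and 36 rows were dropped. Genes were tested with limma 3.58.1 (R 4.3.3) on log2(FPKM + 1) values, which understates folds of low genes, with the prior variance following the mean and Benjamini-Hochberg adjustment over all 10787 genes. For 3 against 3 libraries the smallest two-sided exact p is 0.10. The fit was also run on simulated data in which genes varied independently, with 200 genes changed in each of 20 runs. Such data cannot bear on genes that rise together in 1 library, as most members did. Alternatives were other pseudocounts, filters and scalings, voom, a replicate block and leaving out each library. Members and lists were chosen with earlier results of these data known. All members are accounted for. The other lists are given by counts and by 1 to 4 of their most abundant tested genes. Mb was to be named by the same rule. Myom1, Amd1, Myl4, Tnni3 and list genes at 0 or few reads were named after their values were seen. No libraries agreed within counting noise (chi-square per degree of freedom at least 9.28).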

Additional observations from a re-analysis of the deposited data

How the results depend on the processing

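In each alternative, none of the members tested in it passed adjustment. Of the 22, 14 could be tested with the filter at 5 FPKM and 19 without knockout replicate 3, where Myh2, Mybpc1 and Ldb3 had no value. Log2 fold changes of the 22 were positive wherever they had a value, except that of Eno3, which lay between -0.025 and 0.87 with 1 library left out (lowest without knockout replicate 3). The median over the members ranged from 0.26 to 1.45 and that of the fast members from 0.26 to 1.70 in those fits. The count of members higher at an unadjusted p of 0.05 in limma was 1 of 22, and 1 to 20 with 1 library left out. It was 3 of 35 without a filter (Tnni1, Actn2 and Trim63), and 3 of 35 with a pseudocount of 0.1 as well. With upper-quartile scaling it was 2 of 22, and with the filter at 5 FPKM, which removed Actn2, 0 of 14. The share of all genes higher was counted only with all 6 libraries in the main fit and with 1 library left out. In either direction, 2980 of 16872 genes reached that p without a filter, 2421 of 10787 with upper-quartile scaling and 1667 of 6248 with the filter at 5 FPKM. Over all genes limma called 1 gene, and 0 to 5 with 1 library left out, 2 with the filter at 5 FPKM and 2 with a pseudocount of 0.1 and no filter. It called 0 without a filter (2980 at an unadjusted p of 0.05), 0 with voom on recovered reads (2570) and 0 with the replicate block (2218), so that Mb did not pass in these 3, nor without knockout replicate 1, control replicate 1 or control replicate 2. The replicate numbers share no stated source, and deviations of same-numbered libraries correlated at 0.0649, 0.0269 and -0.254 over genes, so they were not taken as pairs. No slow member reached the filter, so the slow median has no value in the fit as planned. Without a filter it was 0.026 over 6 genes, against -0.042 over all genes. The slow share was 1.29 percentage points lower in knockouts (difference -1.29), and the difference was -0.21 with Tnnt1 and Tnni1 alone, -3.83 with the troponins and -3.38 without Myl1, the last chosen after seeing the data, and -1.82 to -0.89 with 1 library left out. The slow sum differed by 0.12 FPKM (-0.40 to 0.50 with 1 library left out), and the fast sum by 93.6 FPKM (18.2 to 149 with 1 library left out). Depth limits the slow genes, which rest on at most 93 reads a library.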

Other observations

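A few low genes, singled out after their values were seen, had reads mainly in 1 library. Sln, which encodes sarcolipin, a regulator of the muscle calcium pump, had 0, 0 and 25 reads in knockouts, against 1, 0 and 0 reads in controls. Actc1, the cardiac actin also made in developing skeletal muscle, had 1, 1 and 35 reads in knockouts, against 3, 0 and 3 reads in controls. In knockout replicate 3, where both were highest, Acta1 was highest too. The slow light chain Myl2 had 14 reads in control replicate 1 and at most 3 in any other library, while Myh7 had 3 reads there.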
